A study of Homo sapiens with 18 samples.

Results

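Targets of the integrated stress response were followed in 2 acute myeloid leukaemia cell lines and in clones of them labelled as caspase-2 knockouts. The 6 genes were DDIT3, CHAC1, SLC7A11, SLC7A5, DDIT4 and INHBE. They were chosen by name, with earlier results of these data known. All 6 stood in the deposited table, which holds 5069 distinct sets of 18 values. Of these sets, 2320 could be tied to a gene symbol, and the 6 genes are among them. All 6 also passed the minimum for testing, at least 1 TPM in at least 3 libraries. TPM is an abundance scaled to transcript length and to the library, so levels may be compared between genes.

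The integrated stress response is the shared answer of a cell to amino acid shortage, unfolded protein, haem shortage or viral RNA. Kinases that sense these states phosphorylate the initiation factor eIF2alpha, which lowers protein synthesis in general while translation of the transcription factor ATF4 increases. ATF4, often together with C/EBP family partners, then raises the transcription of amino acid transporters, biosynthetic enzymes and stress regulators. In leukaemia cells the pathway is known for its response to glutamine and asparagine shortage and to inhibitors of protein folding or mitochondrial function.

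The 6 genes take different places in this response. DDIT3 encodes CHOP, a transcription factor downstream of ATF4. CHAC1 encodes a glutathione-degrading enzyme. SLC7A11 encodes the light chain of the cystine-glutamate exchanger, and SLC7A5 that of the large neutral amino acid exchanger LAT1. DDIT4 encodes REDD1, an inhibitor of mTORC1 that is also induced by hypoxia and glucocorticoids. INHBE encodes the inhibin beta E subunit, a secreted member of the TGF-beta family.

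The cells were OCI-AML3, which carries the cytoplasmic mutant form of nucleophosmin (NPM1c+), and OCI-AML2, in which NPM1 is wild type. Clone 1 and clone 2 of each line are labelled as caspase-2 knockouts, and each was compared with the caspase-2 wild-type parental cells of its own line. Every group had 3 RNA sequencing libraries, 18 in all, from untreated cells kept in RPMI medium with fetal bovine serum for less than 2 weeks. A group of knockout cells is 1 clone, so an effect of the edit and a difference between clones cannot be told apart within a group. The labels do not say whether the 3 libraries of a group came from separate cultures, so p-values measure the spread between these libraries, which may be technical. In bulk RNA, fewer cells with a transcript and less of it per cell cannot be told apart.

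CASP2 mRNA averaged 27.1 ± 0.745 TPM in OCI-AML3 clone 1, 32.1 ± 2.92 TPM in OCI-AML3 clone 2 and 28.7 ± 1.19 TPM in OCI-AML3 parental cells (SD, n = 3). It averaged 3.50 ± 0.470 TPM in OCI-AML2 clone 1, 4.45 ± 1.02 TPM in OCI-AML2 clone 2 and 36.1 ± 1.07 TPM in OCI-AML2 parental cells (SD, n = 3). The transcript fell in the OCI-AML2 clones (log2 -3.05 and -2.78, limma adjusted p at most 4.18e-13), while the OCI-AML3 clones did not pass (-0.08 and 0.15, adjusted p 0.537 and 0.240), so there the mRNA level does not check the knockout label. The table is a selection: 97.4% of its lines reached an absolute log2 ratio of 0.95 in OCI-AML2 clone 1, in both OCI-AML3 clones together or between the parental lines. Of the 6 genes DDIT4 alone did not reach it there. Its log2 ratio in OCI-AML2 clone 2 was -3.03, and 0.572% of lines reached 0.95 in that clone but in none of the others named. For the other 5 some such difference may have been a condition of being listed. DDIT4 too may be listed for a change in a single clone, since its log2 ratio in OCI-AML3 clone 1 was 1.00. Among the comparisons named first, DDIT3 and CHAC1 reached the ratio only in the OCI-AML3 clones and SLC7A5 only in OCI-AML2 clone 1. In OCI-AML2 clone 2 the log2 ratios were -1.29 for DDIT3, -3.37 for CHAC1 and -1.60 for SLC7A5. SLC7A11 and INHBE reached it in the OCI-AML3 clones and between the parental lines. Large shares of the tested sets pass the comparisons of clones with parental cells, so counts of genes called are read against the share of all 4413 tested sets called by the same rule. That share also holds sets listed for other comparisons, so it is no like reference for a gene listed for the change counted. The read depth is unknown.

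Of 14 myeloid marker genes looked up, 3 had a settled value. FCGR1A (CD64) fell in all 4 clones, with averages of 30.2 and 28.3 TPM in OCI-AML3 clones 1 and 2 against 91.5 TPM in parental cells, and 68.0 and 53.4 TPM in OCI-AML2 clones 1 and 2 against 132.6 TPM (limma adjusted p at most 5.26e-08). ANPEP (CD13) rose in the OCI-AML3 clones, to 58.74 and 67.03 TPM against 29.9 TPM in parental cells (limma adjusted p at most 9.9e-08), and lay between 0.08 and 0.65 TPM in the OCI-AML2 libraries. ITGAM (CD11b) rose in the OCI-AML2 clones, to 1.39 and 1.38 TPM against 0.283 TPM in parental cells (limma adjusted p at most 2.8e-09), and was at no more than 0.24 TPM in the OCI-AML3 libraries. These markers thus moved with the clones, and their part in the results was not tested. Of 10 markers of other lineages, 0 had a settled value, so other cell types were not checked.

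Promoter sequences are shown because CHAC1 and DDIT4 had nearly the same order of levels over the 6 groups and DDIT3 and SLC7A5 did not follow them fully. RefSeq (GRCh38.p14) gave a sequence for 4 of the 6 genes, from 250 bases before to 50 bases after the annotated start. They lie at chr15:40953221-40953520 on the plus strand (CHAC1), chr10:72273674-72273973 on the plus strand (DDIT4), chr12:57520465-57520764 on the minus strand (DDIT3, the first of 2 annotated starts) and chr16:87869458-87869757 on the minus strand (SLC7A5). Capitals mark the matches named after the sequences.
CHAC1: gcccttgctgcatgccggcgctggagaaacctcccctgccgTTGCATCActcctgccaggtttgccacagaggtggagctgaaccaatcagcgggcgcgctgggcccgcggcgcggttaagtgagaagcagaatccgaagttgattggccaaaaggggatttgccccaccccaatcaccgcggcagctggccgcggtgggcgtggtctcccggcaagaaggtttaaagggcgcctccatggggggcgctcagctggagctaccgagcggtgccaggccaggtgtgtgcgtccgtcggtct
DDIT4: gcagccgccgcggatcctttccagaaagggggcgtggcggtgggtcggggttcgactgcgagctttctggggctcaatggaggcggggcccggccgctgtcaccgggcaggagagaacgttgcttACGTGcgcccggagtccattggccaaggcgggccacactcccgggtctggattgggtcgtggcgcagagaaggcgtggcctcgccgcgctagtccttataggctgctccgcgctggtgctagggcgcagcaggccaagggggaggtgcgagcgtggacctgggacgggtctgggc
DDIT3: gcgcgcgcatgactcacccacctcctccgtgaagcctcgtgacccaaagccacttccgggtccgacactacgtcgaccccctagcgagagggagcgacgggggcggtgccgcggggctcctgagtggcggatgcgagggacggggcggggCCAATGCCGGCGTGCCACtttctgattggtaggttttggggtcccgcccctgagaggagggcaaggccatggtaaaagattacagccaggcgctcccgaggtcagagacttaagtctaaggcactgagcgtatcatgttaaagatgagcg
SLC7A5: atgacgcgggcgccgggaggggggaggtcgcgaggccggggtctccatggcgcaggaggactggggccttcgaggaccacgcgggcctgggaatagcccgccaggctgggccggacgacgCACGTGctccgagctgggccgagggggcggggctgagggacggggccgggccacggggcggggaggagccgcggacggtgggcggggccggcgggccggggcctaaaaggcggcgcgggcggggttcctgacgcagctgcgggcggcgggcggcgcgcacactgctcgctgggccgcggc

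Letters of 4 motifs were searched on both strands of these windows and of all 35116 promoter windows of the same length. The C/EBP-ATF response element, to which ATF4 binds, was written TGATGNAA and was found in 3.62% of all windows. Of the 4 genes CHAC1 alone held it within the window, on the minus strand from base -209 to base -202, printed as TTGCATCA. Bases outside the windows were not searched, so the other genes may hold it there. The endoplasmic reticulum stress element, CCAAT and CCACG with 9 bases between them, was found in 0.0769% of all windows and in no window shown. Its form without the last letter, chosen after the DDIT3 sequence had been seen, was found in 0.316% of all windows. DDIT3 held that form from base -100 to base -83. The hypoxia element core ACGTG, found in 21.4% of all windows, stood once in DDIT4 (from -125 to -121) and on both strands of SLC7A5, overlapping itself (from -130 to -125). These matches are descriptions of letters and no measure of binding. CHAC1 and DDIT4 shared none of the 4 motifs in their windows, and whether the matches relate to the levels was not tested.

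In OCI-AML3 the transcription factor gene DDIT3, the glutathione-degrading enzyme gene CHAC1, the cystine exchanger gene SLC7A11, the mTORC1 inhibitor gene DDIT4 and the secreted factor gene INHBE rose in both clones, by 1.75-fold to 5.95-fold in mean TPM. The LAT1 gene SLC7A5 was the exception. Counted by both clones passing in the same direction (limma on log2(TPM + 1), Benjamini-Hochberg adjusted p under 0.05), 5 of 6 genes were higher and 0 lower. By the same rule 67.1% of all tested sets were called, 28.7% higher and 38.3% lower. DDIT3 and CHAC1 may be listed for their change in the OCI-AML3 clones. So may SLC7A11 and INHBE, which also reached the ratio between the parental lines, and DDIT4 may be listed for its change in clone 1. Neither this share nor the median over all tested sets is a like reference for them. The median log2 change over the 6 genes, as the mean of both clones, was 1.29, and over all tested sets it was -0.06. The comparisons of clone 1 and clone 2 share the parental libraries.

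DDIT3 stood at 128.74, 136.45 and 130.12 TPM in the OCI-AML3 clone 1 libraries, 110.41, 97.94 and 110.98 TPM in those of clone 2, against 46.71, 47.59 and 47.16 TPM in the parental libraries. All 6 clone libraries were above all 3 parental libraries, and those of clone 1 were above those of clone 2. Clone 1 changed by 1.46 ± 0.08 on the log2 scale and clone 2 by 1.16 ± 0.08 (SE; limma adjusted p 5.94e-12 and 1.47e-10).

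CHAC1 stood at 279.99, 291.33 and 287.81 TPM in the OCI-AML3 clone 1 libraries, 335.26, 349.08 and 309.91 TPM in those of clone 2, against 137.93, 122.51 and 121.98 TPM in the parental libraries. Every clone library was more than 2-fold above every parental library. As log2 changes these were 1.16 ± 0.09 for clone 1 and, for clone 2, 1.37 ± 0.09 (SE; limma adjusted p 1.77e-09 and 1.82e-10).

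DDIT4 was at 487.37, 473.85 and 535.72 TPM in the OCI-AML3 clone 1 libraries, 425.46, 445.03 and 436.47 TPM in those of clone 2, against 221.69, 266.21 and 258.19 TPM in the parental libraries. The groups of clones and of parental libraries did not overlap. The change was close to a doubling, with a log2 value of 1.00 ± 0.08 in clone 1 and 0.81 ± 0.08 in clone 2 (SE; limma adjusted p 2.48e-09 and 4.69e-08).

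SLC7A11 was at 28.81, 30.58 and 28.59 TPM in the OCI-AML3 clone 1 libraries, 23.16, 22.39 and 24.24 TPM in those of clone 2, against 6.16, 6.84 and 7.49 TPM in the parental libraries. The lowest clone library was thus at 22.39 TPM and the highest parental library at 7.49 TPM. The mean was 4.29-fold the parental one in clone 1 and 3.41-fold in clone 2, with a log2 change of 1.96 ± 0.09 and 1.63 ± 0.09 (SE; limma adjusted p 1.69e-12 and 1.98e-11).

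INHBE was the least abundant of the 6 genes. It was at 5.02, 4.55 and 4.90 TPM in the OCI-AML3 clone 1 libraries, 3.55, 4.45 and 3.27 TPM in those of clone 2, against 0.87, 0.65 and 0.91 TPM in the parental libraries. No clone library was as low as a parental one. The mean TPM ratio was 5.95 in clone 1 and 4.64 in clone 2, while the log2(TPM + 1) change, which understates low genes, was 1.69 ± 0.10 and 1.39 ± 0.10 (SE; limma adjusted p 5.10e-11 and 7.32e-10).

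SLC7A5, the most abundant of the 6, was at 857.91, 874.37 and 898.41 TPM in the OCI-AML3 clone 1 libraries, 970.38, 1052.71 and 934.79 TPM in those of clone 2, against 1126.12, 974.95 and 1007.90 TPM in the parental libraries. Clone 1 lay below all parental libraries, and clone 2 overlapped them. The log2 change of SLC7A5 came to -0.24 ± 0.08 in clone 1 (SE; limma adjusted p = 0.0149) and -0.07 in clone 2 (95% interval -0.24 to 0.10, limma adjusted p = 0.461). The call in clone 1 was lost after rescaling the libraries by medians of ratios (-0.11, adjusted p = 0.234) and without parental replicate 1 (-0.18, adjusted p = 0.0847). Rescaling also turned the sign in clone 2, to 0.08 (adjusted p = 0.366).

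**Figure D1:**
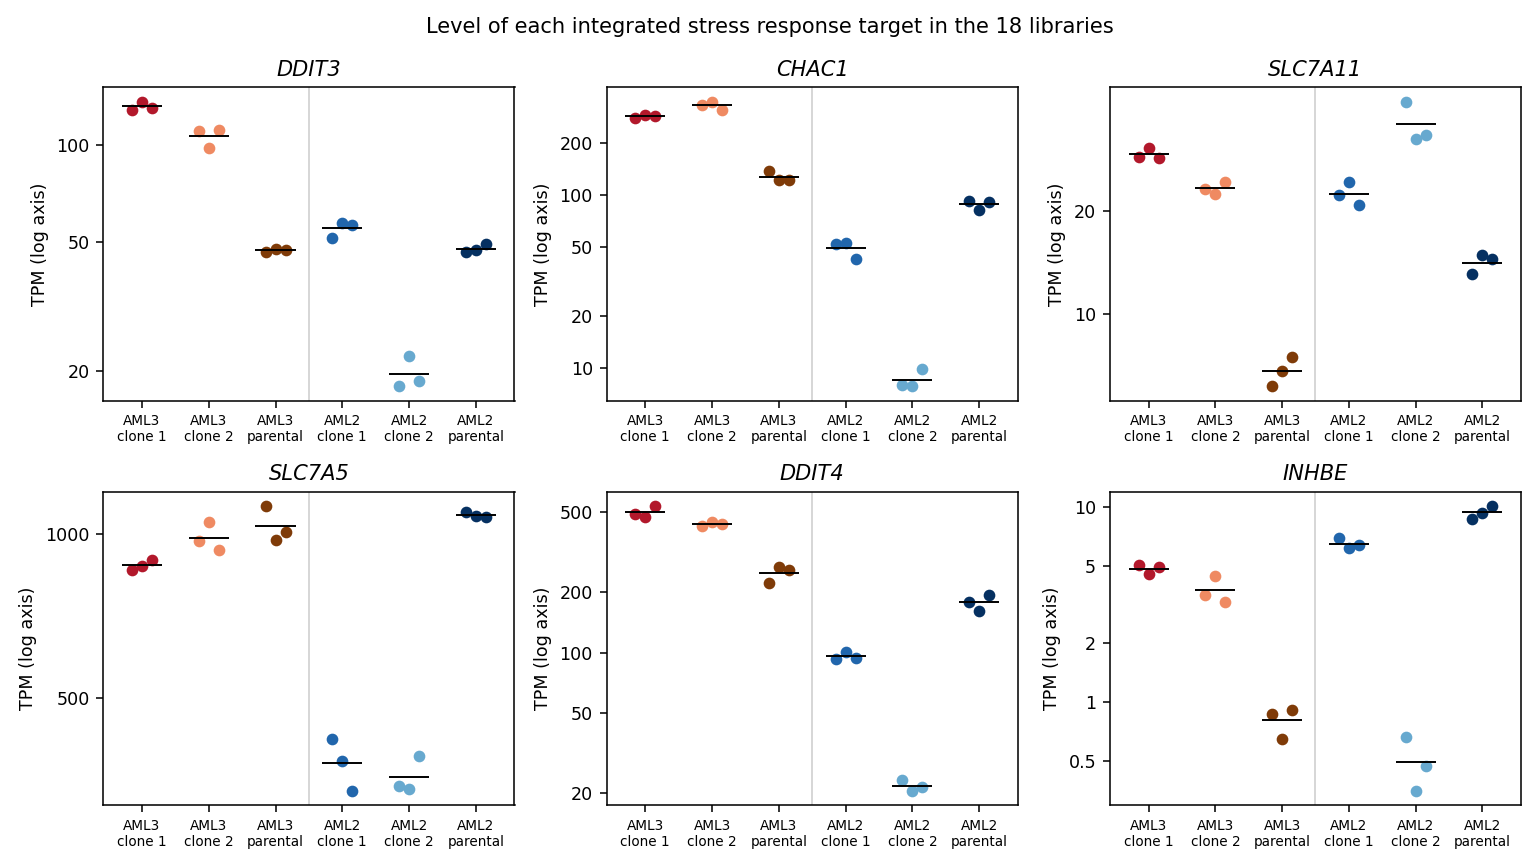
Level of the 6 genes in each of the 18 libraries, in TPM on a log axis, with OCI-AML3 groups to the left of the grey line and OCI-AML2 groups to its right; points are libraries and bars are means of 3. DDIT3, CHAC1, SLC7A11, DDIT4 and INHBE stand higher in both OCI-AML3 clones than in their parental cells, and OCI-AML2 clone 2 is the lowest group for DDIT3, CHAC1, DDIT4 and INHBE.

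In OCI-AML2 the direction was mostly the opposite and the clones differed in size. CHAC1, DDIT4, SLC7A5 and INHBE fell in both clones, SLC7A11 rose in both, and DDIT3 went up slightly in clone 1 and down in clone 2. By both clones passing in the same direction, 1 of 6 genes was higher and 4 were lower, where 38.4% of all tested sets were called, 23.8% higher and 14.6% lower. SLC7A5 may be listed for its fall in OCI-AML2 clone 1 and DDIT4 for its fall in clone 2, so this share is no like reference for them. The median log2 change over the 6 genes was -1.60 and over all tested sets 0.06. Here too the comparisons of the clones share their parental libraries.

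CHAC1 stood at 52.16, 53.27 and 43.15 TPM in the OCI-AML2 clone 1 libraries, 8.03, 7.86 and 9.88 TPM in those of clone 2, against 92.34, 82.49 and 92.00 TPM in the parental libraries. The 3 groups were apart, with clone 2 at 9.66% of the parental mean and clone 1 at 55.7%. On the log2 scale the change came to -0.84 ± 0.09 in clone 1, and in clone 2 to -3.23 ± 0.09 (SE; limma adjusted p 3.38e-07 and 3.00e-15).

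DDIT4 had the same order, at 93.45, 100.62 and 94.46 TPM in the OCI-AML2 clone 1 libraries, 23.33, 20.49 and 21.38 TPM in those of clone 2, against 178.70, 161.69 and 193.40 TPM in the parental libraries. Clone 2 was at 12.2% and clone 1 at 54.1% of the parental mean, with no overlap among the groups. Clone 1 changed by -0.88 ± 0.08 on the log2 scale and clone 2 by -2.97 ± 0.08 (SE; limma adjusted p 3.60e-08 and 1.96e-15).

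INHBE was at 6.96, 6.16 and 6.36 TPM in the OCI-AML2 clone 1 libraries, 0.66, 0.35 and 0.47 TPM in those of clone 2, against 8.68, 9.33 and 10.10 TPM in the parental libraries. In clone 1 it was at 69.3% of the parental mean, below every parental library, and it was below 1 TPM in every library of clone 2, at 5.27% of that mean. As log2 changes these were -0.47 ± 0.10 for clone 1 and, for clone 2, -2.80 ± 0.10 (SE; limma adjusted p 0.000723 and 9.97e-14).

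SLC7A5 was at 420.82, 383.03 and 337.65 TPM in the OCI-AML2 clone 1 libraries, 344.26, 340.86 and 391.13 TPM in those of clone 2, against 1097.76, 1081.50 and 1077.68 TPM in the parental libraries. The clones overlapped each other at 35.0% (clone 1) and 33.0% (clone 2) of the parental mean and were far below every parental library. On the log2 scale the change came to -1.52 ± 0.08 in clone 1, and in clone 2 to -1.60 ± 0.08 (SE; limma adjusted p 3.23e-11 and 1.10e-11).

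DDIT3 was at 51.51, 57.43 and 56.48 TPM in the OCI-AML2 clone 1 libraries, 17.86, 22.25 and 18.61 TPM in those of clone 2, against 46.50, 47.42 and 49.30 TPM in the parental libraries. Clone 2 lay below all parental libraries, at 41.0% of their mean, and clone 1 just above them. For clone 1 the log2 change of DDIT3 came to 0.20 ± 0.08 (SE; limma adjusted p = 0.0294) and for clone 2 to -1.25 ± 0.08 (SE; limma adjusted p 9.21e-11). The small rise in clone 1 was no longer called after rescaling (0.10, adjusted p = 0.336), with the OCI-AML2 libraries fitted alone (0.20, adjusted p = 0.0741), or without parental replicate 1 (adjusted p = 0.0855), parental replicate 2 (0.0675), clone 1 replicate 2 (0.103) or clone 1 replicate 3 (0.0773).

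SLC7A11 was at 22.26, 24.36 and 20.78 TPM in the OCI-AML2 clone 1 libraries, 41.69, 32.52 and 33.35 TPM in those of clone 2, against 13.08, 14.84 and 14.44 TPM in the parental libraries. It was the only one of the 6 genes that was called higher in all 4 clones in the fit of all libraries. In clone 2 of this line it was highest while the other genes were lowest or, for SLC7A5, level with clone 1. Clone 1 changed by 0.63 ± 0.09 on the log2 scale and clone 2 by 1.28 ± 0.09 (SE; limma adjusted p 1.18e-05 and 9.66e-10).

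For the single clones, 6 of 6 genes were called in OCI-AML3 clone 1, 5 higher and 1 lower, where 72.2% of all tested sets were called, 31.3% higher and 41% lower. In OCI-AML3 clone 2, 5 of 6 were called, all higher, where 73.1% of all sets were, 31.6% higher and 41.5% lower. In OCI-AML2 clone 1, 6 of 6 were called, 2 higher and 4 lower, where 56% of all sets were called, 35.1% higher and 20.9% lower. In OCI-AML2 clone 2, 6 of 6 were called, 1 higher and 5 lower, where 65.7% of all sets were called, 38.3% higher and 27.5% lower. These shares are again no like reference for genes that may be listed for a change in the clone counted.

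**Figure D2:**
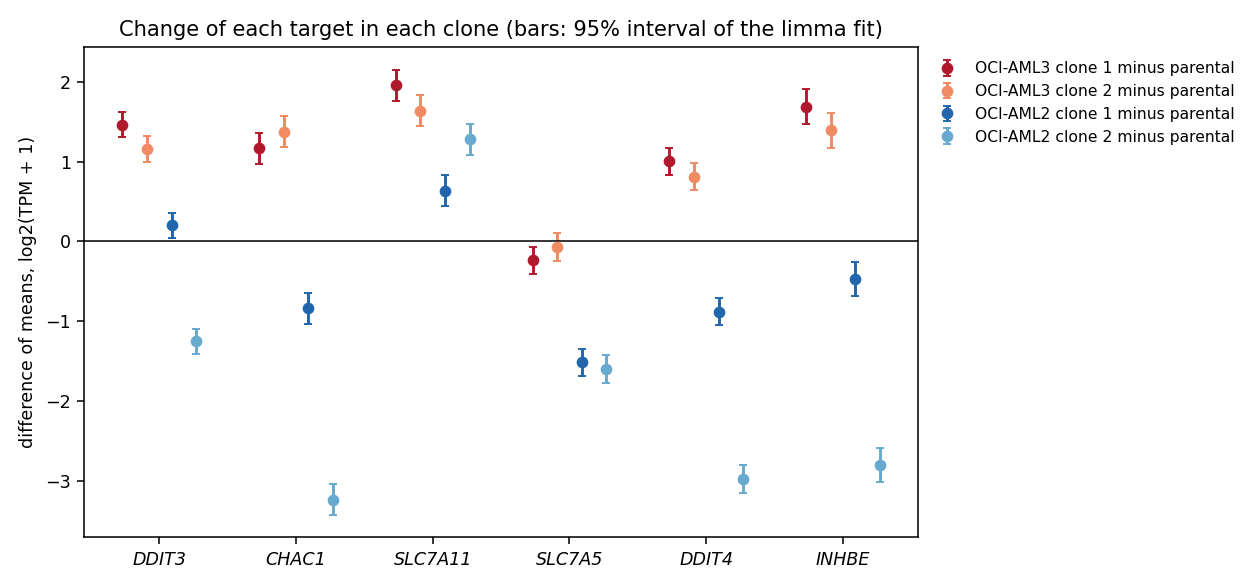
Change of each gene in each clone against the parental cells of its line, as the difference of mean log2(TPM + 1); points are estimates and bars their 95% intervals from limma. The red points (OCI-AML3) lie above the blue points (OCI-AML2) for each gene, and SLC7A5 lies near 0 in OCI-AML3 and near -1.5 in OCI-AML2.

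The change in the clones was then compared between the lines, as the mean change of the OCI-AML3 clones minus that of the OCI-AML2 clones. All 6 genes were higher in OCI-AML3 by this difference, where 81.7% of all tested sets were called, 33.2% higher and 48.5% lower. A clone change that may have listed a gene is itself part of this difference. For such genes, DDIT3, CHAC1 and SLC7A5 among them, the share is no like reference. The difference was 3.30 ± 0.11 for CHAC1, 3.17 ± 0.12 for INHBE, 2.83 ± 0.10 for DDIT4, 1.83 ± 0.09 for DDIT3, 1.40 ± 0.10 for SLC7A5 and 0.84 ± 0.11 for SLC7A11 (log2, SE). The limma adjusted p was between 1.98e-14 for CHAC1 and 2.15e-06 for SLC7A11. All sets together had a median difference of -0.23, which rescaling by medians of ratios moved to -0.08. Relative to the median as deposited, the differences were 3.54 for CHAC1, 3.41 for INHBE, 3.07 for DDIT4, 2.07 for DDIT3, 1.64 for SLC7A5 and 1.07 for SLC7A11.

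Each OCI-AML3 clone was also set against each OCI-AML2 clone. All 4 such differences passed in the same direction for 6 of 6 genes, where 61.3% of all tested sets were called by this rule, 24.2% higher and 37.1% lower. For CHAC1 they ran between 2.00 and 4.61, for INHBE between 1.86 and 4.49, for DDIT4 between 1.69 and 3.98 and for DDIT3 between 0.95 and 2.71. For SLC7A5 they were nearly equal, between 1.28 and 1.53. The smallest of all these differences was that of SLC7A11 between OCI-AML3 clone 2 and OCI-AML2 clone 2, at 0.36 ± 0.13 (SE; limma adjusted p = 0.0188). SLC7A5 had fallen in the OCI-AML2 clones and was at -0.24 (adjusted p 0.0149) and -0.07 (adjusted p 0.461) in OCI-AML3 clones 1 and 2, whereas SLC7A11 had risen in all 4 clones and more in OCI-AML3. These 4 differences share libraries and are not separate tests. The share called by this rule is, as above, no like reference for genes that may be listed for a clone change.

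The clones of a line were then compared with each other. In OCI-AML2, clone 2 was lower than clone 1 for 4 of the 6 genes and higher for 1, where 58.9% of all tested sets were called, 29% lower and 29.9% higher. INHBE had a mean in clone 2 that was 7.60% of that in clone 1, CHAC1 17.3%, DDIT4 22.6% and DDIT3 35.5%. The log2 difference, clone 2 minus clone 1, was -2.40 ± 0.09 for CHAC1, -2.33 ± 0.10 for INHBE, -2.10 ± 0.08 for DDIT4 and -1.45 ± 0.08 for DDIT3 (SE; the limma adjusted p was at most 3.73e-11). By absolute difference CHAC1 ranked 18, INHBE 24 and DDIT4 38 among the 4413 tested sets. SLC7A11 was 0.65 ± 0.09 higher in clone 2 (SE; limma adjusted p 9.60e-06). For SLC7A5 the difference was -0.08, with a 95% interval of -0.26 to 0.09 (limma adjusted p = 0.436). CASP2 mRNA did not pass in this comparison, at 0.26 ± 0.11 (SE; limma adjusted p = 0.0534).

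In OCI-AML3 the clones were closer. Clone 2 was lower than clone 1 for 2 of the 6 genes and higher for 0, where 6.82% of all tested sets were called, 2.88% lower and 3.94% higher. The log2 difference was -0.31 ± 0.08 for DDIT3 and -0.32 ± 0.09 for SLC7A11 (SE; limma adjusted p 0.0221 and 0.0445). Neither call held in every fit. Without clone 2 replicate 2 the adjusted p was 0.120 for DDIT3 and 0.152 for SLC7A11. Leaving out any of the 3 clone 1 libraries also lost both, with adjusted p between 0.0536 and 0.117, and leaving out clone 2 replicate 1 or 3 lost SLC7A11 (0.104 and 0.0517). SLC7A11 was further lost without OCI-AML2 parental replicate 2 or 3, OCI-AML2 clone 1 replicate 1 or OCI-AML3 parental replicate 2, with adjusted p between 0.0522 and 0.0575. The intervals of the others were 0.02 to 0.40 for CHAC1, -0.01 to 0.34 for SLC7A5, -0.36 to -0.02 for DDIT4 and -0.51 to -0.08 for INHBE, before adjustment over all sets.

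The parental lines differed from each other for 4 of the 6 genes. OCI-AML3 parental cells were higher than OCI-AML2 parental cells for 2 and lower for 2, where 90.6% of all tested sets were called, 47.2% higher and 43.4% lower. The symbols of DDIT3, CHAC1, SLC7A5 and DDIT4 were settled only because their absolute log2 ratio between parental lines was below 0.6. That these genes differed little here was thus fixed by the rule, and the share is no like reference for them. INHBE was the extreme, at a mean of 0.810 ± 0.140 TPM in OCI-AML3 and 9.37 ± 0.711 TPM in OCI-AML2 (SD, n = 3; log2 difference -2.52 ± 0.10, limma adjusted p 5.19e-14). SLC7A11 was also lower in OCI-AML3 (-0.95 ± 0.09), while CHAC1 (0.51 ± 0.09) and DDIT4 (0.48 ± 0.08) were higher (log2, SE; the limma adjusted p was at most 3.73e-05). DDIT3 differed by -0.02 (95% interval -0.18 to 0.14, limma adjusted p = 0.835) and SLC7A5 by -0.07 (-0.24 to 0.10, limma adjusted p = 0.427). After rescaling, SLC7A5 was lower in OCI-AML3, at -0.19 (adjusted p = 0.0259), and without OCI-AML2 parental replicate 3 DDIT3 was at 0.01 (adjusted p = 0.954).

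The 6 groups can be put in order for each gene, from low to high. That the parental groups lie close for CHAC1, DDIT4, DDIT3 and SLC7A5 follows from the rule that settled their symbols. For CHAC1 and DDIT4 the order was OCI-AML2 clone 2, OCI-AML2 clone 1, OCI-AML2 parental, OCI-AML3 parental and then the OCI-AML3 clones, with clone 2 highest for CHAC1 and clone 1 highest for DDIT4. The libraries of these clones did not overlap for either gene, but the difference did not pass after adjustment over all sets (limma adjusted p 0.175 and 0.153). For DDIT3 it was OCI-AML2 clone 2, the parental cells of both lines together, OCI-AML2 clone 1, OCI-AML3 clone 2 and OCI-AML3 clone 1. For INHBE it was OCI-AML2 clone 2, OCI-AML3 parental, OCI-AML3 clone 2, OCI-AML3 clone 1, OCI-AML2 clone 1 and OCI-AML2 parental. The INHBE libraries of the OCI-AML3 clones did not overlap either, and their difference did not pass (limma adjusted p = 0.0854). The lowest pair of groups for INHBE differed by 0.28 on the log2 scale (OCI-AML3 parental above OCI-AML2 clone 2, limma adjusted p = 0.0156).

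For SLC7A11 the order was OCI-AML3 parental, OCI-AML2 parental, OCI-AML2 clone 1 together with OCI-AML3 clone 2 (limma adjusted p = 0.605), OCI-AML3 clone 1 and OCI-AML2 clone 2. Its parental cells were thus the lowest groups in both lines. For SLC7A5 the OCI-AML2 clones formed a low pair and the other 4 groups a high band. The band ran, from low to high, over OCI-AML3 clone 1, OCI-AML3 clone 2, OCI-AML3 parental and OCI-AML2 parental, and its neighbours did not pass as deposited (limma adjusted p between 0.227 and 0.461). The libraries of OCI-AML3 clone 1 nevertheless lay below all those of clone 2 and of both parental groups. With libraries rescaled by medians of ratios, SLC7A5 was lower in OCI-AML3 parental than in OCI-AML2 parental cells (-0.19, limma adjusted p = 0.0259).

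Across the 18 libraries CHAC1 and DDIT4 moved most closely together, with a Pearson r of 0.993 on log2(TPM + 1). DDIT3 followed them with an r of 0.926 to CHAC1 and 0.915 to DDIT4. SLC7A11 was apart, with an r of -0.285 to CHAC1 and -0.574 to SLC7A5. INHBE had an r of 0.434 to CHAC1 and 0.434 to DDIT4. These values describe 18 libraries that fall into 6 groups and genes of a library share its scaling, so no p is given.

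Of 2078 genes compared, the most alike in pattern to CHAC1 and also to DDIT4 were SLC6A9, the glycine transporter GlyT1 (r 0.995 and 0.993), and ASS1, argininosuccinate synthase (r 0.985 for both). ASS1 averaged 1978 ± 37.3 TPM in OCI-AML3 clone 1, 2030 ± 39.4 TPM in clone 2 and 1016 ± 39.3 TPM in OCI-AML3 parental cells (SD, n = 3). It averaged 559 ± 5.20 TPM in OCI-AML2 clone 1, 133 ± 15.4 TPM in clone 2 and 1134 ± 60.5 TPM in OCI-AML2 parental cells (SD, n = 3). For DDIT3 the nearest were LOC112268238 (r 0.983) and the beta-tropomyosin gene TPM2 (0.971), and for SLC7A11 AP5Z1 (0.969) and the cytochrome b5 gene CYB5A (0.965). For INHBE they were FXYD1 (0.945) and TGFBI (0.932).

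SLC7A5 had CASP2 itself as its nearest gene (r 0.988), followed by C2orf74 (0.972). Both SLC7A5 and CASP2 were low in the 6 libraries of the OCI-AML2 clones and high in the libraries of the other 4 groups. C2orf74 averaged 0.0967 TPM in OCI-AML2 clone 1, was listed at 0 in the 3 libraries of clone 2 and averaged 7.86 TPM in OCI-AML2 parental cells. The 18 points thus fall into 2 clusters of groups.

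**Figure D3:**
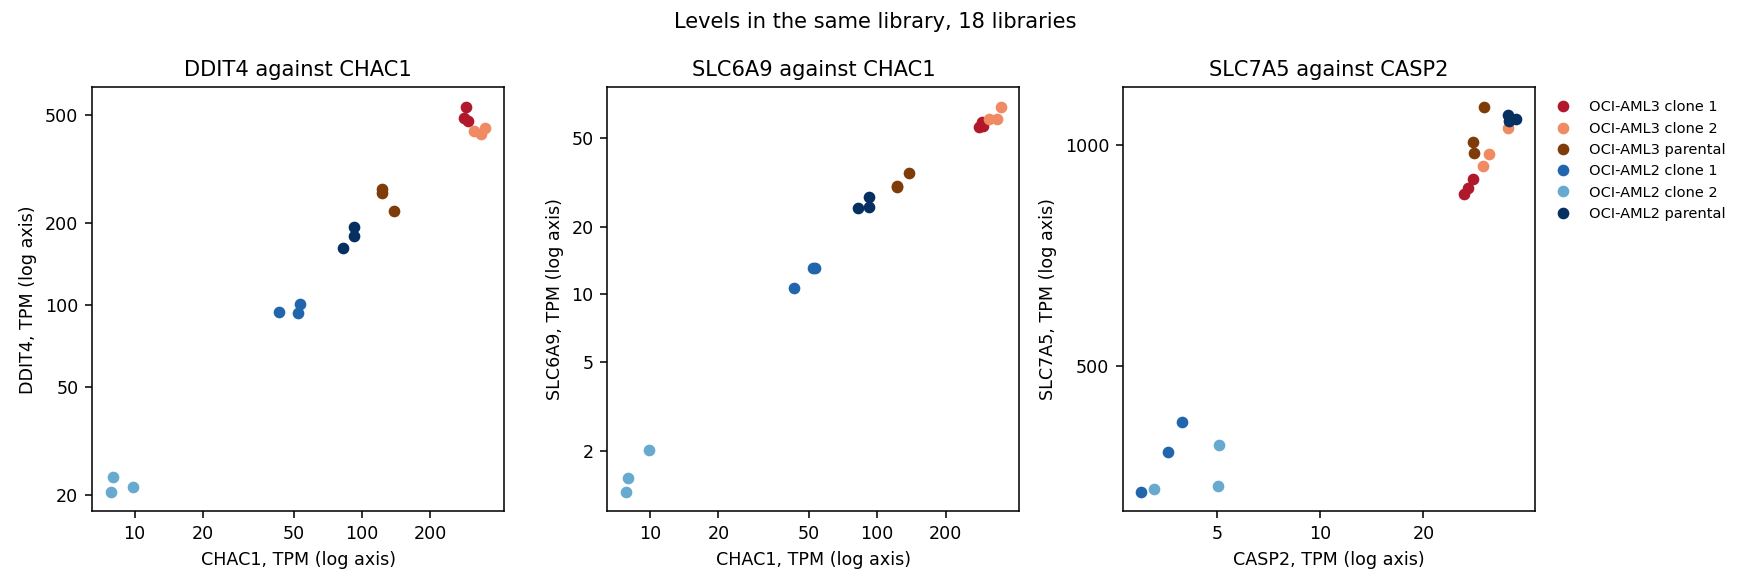
Levels of 2 genes in the same library, in TPM on log axes, with 1 point per library and colours by group: DDIT4 against CHAC1, SLC6A9 against CHAC1 and SLC7A5 against CASP2. The first and second panels form a band over all 6 groups (r 0.993 and 0.995, n = 18), and the third shows 2 separate clusters.

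Other genes, called pathway genes here, were taken from 8 lists that name 100 genes in all. The lists also cover neighbouring pathways. NQO1 came from a list of NRF2 targets. HSPA5 and HERPUD1 came from a list of endoplasmic reticulum chaperones and unfolded protein response genes. Only 24 of these symbols stood in the table and 10 had a settled value, so the lists are sparsely covered. Of the 17 regulators of the eIF2alpha switch, which include the sensing kinases and ATF4, and of the 13 aminoacyl-tRNA synthetase and related genes, 0 could be read. In both OCI-AML3 clones 9 of the 10 genes were higher and 1 was lower, where 28.7% and 38.3% of all tested sets were. In both OCI-AML2 clones 1 was higher and 5 were lower, where 23.8% and 14.6% of all sets were. GOT1, HERPUD1, NQO1 and GADD45A may be listed for their change in the OCI-AML3 clones. CTH and SLC6A9 may be listed for their fall in OCI-AML2 clone 1. NUPR1, GDF15 and STC2 reached the ratio in the OCI-AML3 clones and between the parental lines. These shares are thus no like reference for such genes. The median difference between the lines over the 10 genes was 2.19.

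NUPR1, a small stress-induced chromatin protein, was at 12.08, 13.22 and 13.44 TPM in the OCI-AML3 clone 1 libraries, 9.96, 14.78 and 12.95 TPM in those of clone 2, against 1.41, 0.89 and 1.17 TPM in the parental libraries. In OCI-AML2 it was at 2.73, 3.80 and 3.57 TPM in the clone 1 libraries, 0, 0.41 and 0.15 TPM in those of clone 2, against 3.68, 3.84 and 3.59 TPM in the parental libraries. It thus rose in both OCI-AML3 clones and fell in OCI-AML2 clone 2, with log2 changes of 2.70, 2.64 and -2.0, while OCI-AML2 clone 1 did not pass at -0.12 (limma adjusted p = 0.538).

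Amino acid genes split. CTH, the cystathionine gamma-lyase that makes cysteine, averaged 17.1 ± 1.06 TPM in OCI-AML2 clone 1, 3.98 ± 0.864 TPM in clone 2 and 54.0 ± 5.35 TPM in OCI-AML2 parental cells (SD, n = 3). It rose slightly in the OCI-AML3 clones (log2 0.33 and 0.42). SLC6A9 averaged 12.3 ± 1.40 TPM in OCI-AML2 clone 1, 1.62 ± 0.365 TPM in clone 2 and 25.4 ± 1.61 TPM in parental cells, and it rose in the OCI-AML3 clones (0.83 and 0.98). Both genes thus had the graded order of CHAC1 and DDIT4 in OCI-AML2, with clone 2 the lowest.

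GOT1, the cytosolic aspartate aminotransferase, was the pathway gene that fell in OCI-AML3. It was listed at 0, 0.06 and 0 TPM in the clone 1 libraries, at 0, 0.06 and 0.06 TPM in those of clone 2, against 23.43, 27.38 and 21.18 TPM in the OCI-AML3 parental libraries. In OCI-AML2 it averaged 20.0 ± 1.51 TPM in clone 1, 26.1 ± 1.96 TPM in clone 2 and 21.4 ± 0.603 TPM in parental cells (SD, n = 3). Values near 0 were therefore seen in the OCI-AML3 clones and not in the OCI-AML2 clones, with a difference between the lines of -4.68 ± 0.11 (log2, SE; limma adjusted p 1.51e-16).

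Of the secreted and growth arrest genes, 3 of 3 with a value rose in both OCI-AML3 clones, where 28.7% of all tested sets did. GADD45A may be listed for this rise itself, and so may GDF15 and STC2, which also reached the ratio between the parental lines. GDF15, a secreted stress cytokine, changed by 2.60 and 2.62 on the log2 scale in OCI-AML3 clones 1 and 2, and by -0.87 and -0.96 in OCI-AML2 clones 1 and 2. It averaged 0.490 and 0.427 TPM in the OCI-AML2 clones and 1.74 TPM in their parental cells. STC2, a secreted glycoprotein, averaged 81.6 and 79.9 TPM in the OCI-AML3 clones and 39.6 TPM in their parental cells, and 0.190 and 0.170 TPM in the OCI-AML2 clones against 4.50 TPM in theirs. GADD45A, a growth arrest gene, rose in the OCI-AML3 clones (0.92 and 0.88), and in the OCI-AML2 clones it was at -0.03 and -0.09 with adjusted p of 0.926 and 0.602. Between the OCI-AML2 clones 0 of the 3 passed (limma adjusted p between 0.673 and 0.878), where 58.9% of all tested sets did. GDF15 and STC2 averaged below the pseudocount of 1 TPM in both of these clones, so a further drop could hardly have been seen.

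HSPA5, the chaperone BiP, and NQO1, a quinone reductase induced by NRF2, were higher in OCI-AML2 clone 2 and in both OCI-AML3 clones, as SLC7A11 was. HSPA5 averaged 173 ± 8.70 TPM in clone 1, 328 ± 25.8 TPM in clone 2 and 160 ± 15 TPM in OCI-AML2 parental cells (SD, n = 3). NQO1 averaged 8.76 ± 1.21 TPM in clone 1, 24.6 ± 3.00 TPM in clone 2 and 6.80 ± 0.307 TPM in parental cells. Against parental cells, clone 1 did not pass for HSPA5 (0.11, limma adjusted p = 0.196) and passed for NQO1 (0.32, limma adjusted p = 0.00974). Clone 2 was above clone 1 by 0.92 ± 0.07 for HSPA5 and 1.39 ± 0.10 for NQO1 (log2, SE; limma adjusted p 6.79e-09 and 1.68e-09), as it was for SLC7A11 and unlike CHAC1. In OCI-AML3 clones 1 and 2 the log2 changes were 1.05 and 0.83 for HSPA5 and 2.26 and 1.90 for NQO1. NQO1 was thus called higher in every clone. HERPUD1, a component of protein degradation at the endoplasmic reticulum, rose in the OCI-AML3 clones (1.00 and 0.97) and fell in the OCI-AML2 clones (-0.50 and -0.45).

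**Figure D4:**
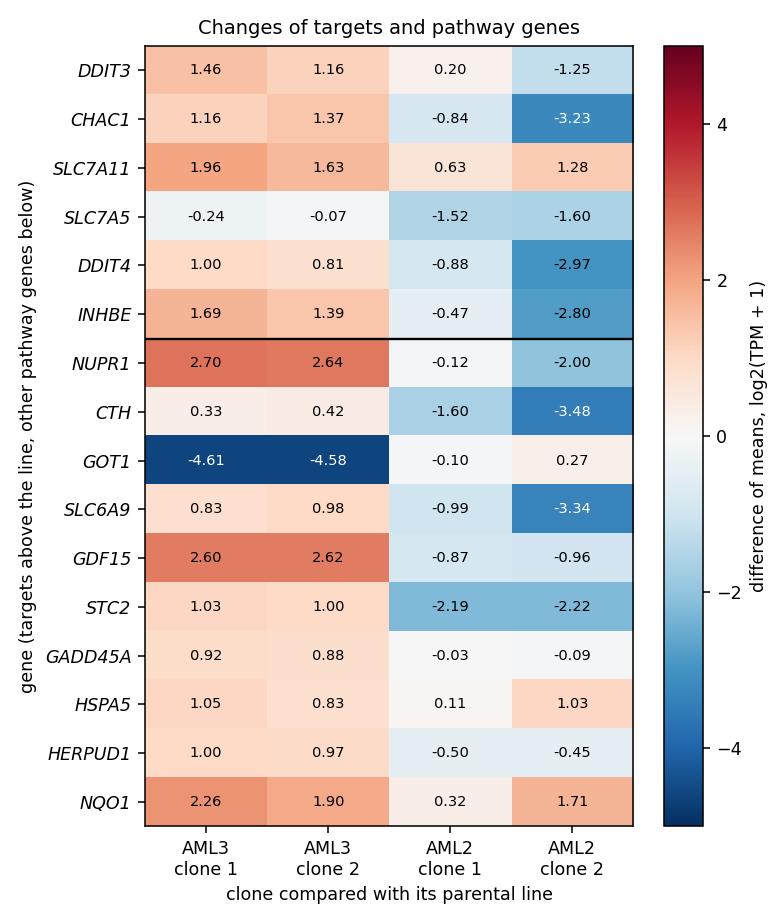
Changes of the 6 genes (above the line) and of the 10 other pathway genes with a settled value (below it) in each clone against its parental cells, as differences of mean log2(TPM + 1), red for higher and blue for lower. Apart from SLC7A5 and GOT1 the OCI-AML3 columns are positive, while in OCI-AML2 clone 2 DDIT3, CHAC1, SLC7A5, DDIT4 and INHBE are negative and SLC7A11, HSPA5 and NQO1 positive.

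Some values carry limits from the annotation. In RefSeq, DDIT3 overlaps MARS1 and LOC128125814, SLC7A11 and SLC7A5 overlap antisense transcripts (SLC7A11-AS1 and SLC7A5-AS1), and INHBE overlaps LOC124902947. The sources used here do not say whether counting used strand, so reads of such pairs may not be separated. SLC7A5 also has the pseudogenes SLC7A5P1 and SLC7A5P2, so its level is uncertain to the extent that reads were shared. INHBE and DDIT3 lie near each other on chromosome 12, with GLI1, ARHGAP9 and MARS1 between them, yet their r over the 18 libraries was 0.530. CHAC1 and DDIT4 overlap no other gene in this annotation.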

How the data were processed

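RNA sequencing libraries of OCI-AML3 and OCI-AML2 cells were grouped by the sample titles into 6 groups of 3. Values are TPM as deposited, per the file headers. The sources used here name no aligner, counting tool, build or annotation, and TPM keeps no read depth, so no counting error is given. Total RNA was extracted on columns and libraries were prepared by a BGI facility, per the labels' protocols. The 6 genes, the pathway lists and the marker lists were chosen with earlier results of these data known.

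The table holds 6999 lines with 4816 symbols and 5069 distinct sets of values, 1732 of them in several lines. Each set was counted once. Some values stand under 2 symbols, with the 3 values of OCI-AML3 clone 1 rotated in 1 of the lines. The line reading a, b, c whose repeat reads b, c, a was used and the repeat dropped. A symbol was settled for 1234 sets by this order, for 413 repeated under 1 symbol, and for 673 in a single line whose absolute log2 ratio between parental lines was below 0.6. Of the 1529 lines in the rotated order, 0 were below that ratio. SLC7A11 was settled by the order (a repeat under LGALSL was dropped), INHBE by its repeats, and DDIT3, CHAC1, SLC7A5 and DDIT4 as single lines. The remaining 2749 sets are not named. Summed over the sets, a library held 170141 to 199403 TPM. Of the value columns, 0 lacked a sample.

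A pseudocount of 1 was added and log2 values were fitted with limma 3.58.1 (R 4.3.3), with 1 mean per group over 18 libraries and an intensity trend. The fit took the 4413 sets that reached 1 TPM in 3 or more libraries (2084 with a settled symbol) and left out 656. Two-sided p-values were adjusted per comparison over all tested sets (Benjamini-Hochberg), and 0.05 was the threshold. A line counted as called where its clones both passed with the same sign. Log2 changes refer to log2(TPM + 1), so low genes are understated, and folds are ratios of mean TPM. Named were the 6 genes, CASP2, every listed pathway gene with a settled tested value, and for each of the 6 the 2 genes with the highest Pearson r. The fit was tested on simulated data. Alternatives were a pseudocount of 0.1, minimums of 0 and 5 TPM, rescaling by medians of ratios, the replicate block, no trend, counting every line, fitting a line alone and leaving out each library.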

Additional observations from a re-analysis of the deposited data

Results flagged for a closer look

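For each of the 6 genes the change in the clones differed between the lines by the test of the difference itself, the mean change of the OCI-AML3 clones minus that of the OCI-AML2 clones (limma on log2(TPM + 1), Benjamini-Hochberg over 4413 sets, 2 clones of 3 libraries in each line). The difference was 1.83 ± 0.09 for DDIT3 (SE; adjusted p 4.54e-12), 3.30 ± 0.11 for CHAC1 (1.98e-14) and 0.84 ± 0.11 for SLC7A11 (2.15e-06). It was 1.40 ± 0.10 for SLC7A5 (SE; adjusted p 5.83e-10), 2.83 ± 0.10 for DDIT4 (3.02e-14) and 3.17 ± 0.12 for INHBE (1.58e-13). CHAC1, DDIT4 and INHBE rose in both OCI-AML3 clones and fell in both OCI-AML2 clones. SLC7A11 moved the same way in both lines and differed in size. CASP2 mRNA was not lower in the OCI-AML3 clones and was lower in the OCI-AML2 clones, and its part in these differences was not tested. By the same test 81.7% of all sets differed between the lines. That share is no like reference for genes that may be listed for a clone change.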

How the results depend on the processing

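Of 1548 values of single genes recomputed under 26 alternatives, 1521 kept their direction and side of the threshold, 24 lost the call, 1 gained it and 2 turned sign. The turned values were SLC7A5 in OCI-AML3 clone 2 against parental cells after rescaling (0.081) and DDIT3 between parental lines, which ranged from -0.035 to 0.0058 as single libraries were left out and was positive without OCI-AML2 parental replicate 3. Neither was called in any fit. The comparison of OCI-AML3 clone 2 with clone 1 depended most on the settings. Its 301 sets called became 166 with a pseudocount of 0.1, 194 with the OCI-AML3 libraries alone and 102 to 370 when single libraries were left out. Its 2 of 6 genes called became 1 with a pseudocount of 0.1, 1 with the replicate block and 0 to 2 when single libraries were left out. Counting every line of the table gave 4442 lines called in both OCI-AML3 clones in place of 2959 sets, and 2603 in place of 1695 in both OCI-AML2 clones, since repeats are counted again. Other causes were not tested. Replicate numbers did not pair the samples: same-numbered libraries had correlations of -0.343 to 0.177, with 5 of 45 pairs above 0.1. With the replicate block 2938 sets were called in both OCI-AML3 clones and 1684 in both OCI-AML2 clones, and no call of the 6 genes changed except SLC7A11 between the OCI-AML3 clones (adjusted p = 0.0687). Read depth is unknown, and INHBE lies below 1 TPM in 2 groups, where precision is lowest.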
